A study of Mus musculus with 8 samples.

Results

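The dystrophin-associated glycoprotein complex was followed through 8 of its genes in mouse skeletal muscle with and without LSD1 in the muscle fibers. The genes were taken by symbol from the rows of the count table and were *Dmd*, *Utrn*, *Dag1*, *Sgca*, *Sgcb*, *Sgcd*, *Sspn* and *Dtna*, 8 of 27041 rows. Each has a single row, and all 8 were among the 11364 rows that passed the limit on low counts, a mean above 50 reads per library. The muscles came from 9-week-old male mice, which the labels give as strain C57BL/6J. Ctrl mice carried the floxed LSD1 L2/L2 alleles, in which the first exon of *Kdm1a*, the gene of the histone demethylase LSD1, lies between loxP sites, and had no Cre. LSD1skm-/- mice carried the same alleles together with the HSA-Cre transgene, which is active in myofibers, so that the other cells of the muscle keep the gene. The study names the muscle as gastrocnemius, the labels give skeletal muscle only, and nothing in either says that any animals were pooled or treated. Polyadenylated RNA was sequenced as single-end reads of 50 bases, and the counts analysed here cover 4 Ctrl libraries and 2 LSD1skm-/- libraries of the 4 labelled in each group. LSD1skm-/- replicates 3 and 4 were not analysed here.

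The complex joins the cytoskeleton of the muscle fiber to the matrix around it. Dystrophin, or its homolog utrophin, binds actin inside the fiber and β-dystroglycan in the membrane, α-dystroglycan binds laminin outside, and the sarcoglycans and sarcospan hold the membrane part together. Dystrobrevins and syntrophins sit on the inner face and bring in signaling proteins such as neuronal nitric oxide synthase. Loss of dystrophin causes Duchenne muscular dystrophy, and loss of sarcoglycans causes limb-girdle muscular dystrophies.

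*Kdm1a* was measured first because it checks the labels. Its level was 23.0, 22.0 and 28.1 CPM (counts relative to library size, scaled by the TMM method) in Ctrl replicates 1, 2 and 3, 3.66 CPM in the library labelled Ctrl replicate 4, and 2.96 and 3.48 CPM in the LSD1skm-/- libraries. The library labelled Ctrl replicate 4 therefore lay next to the LSD1skm-/- libraries for the targeted gene, against its label. The log2 fold change of *Kdm1a* was -2.56 by the labels (SE 0.74, adjusted p = 0.557, edgeR quasi-likelihood test) and -2.91 without that library (SE 0.17, adjusted p = 0.000579, edgeR). That library was dropped for its *Kdm1a* level, so the second SE and p are no independent test of *Kdm1a*. Every comparison is given in both ways, by the labels with 4 Ctrl against 2 LSD1skm-/- libraries, and with 3 against 2 after that library had been dropped.

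Libraries held 30654828 to 41278769 counts. Myofiber markers were abundant in all 6 libraries, with a summed level of 7 genes between 150500 and 185200 CPM, led by *Myh4*, the fast myosin of type IIB fibers. Both LSD1skm-/- sums, 150500 and 155900 CPM, lay below those of the 4 Ctrl libraries, 157000 to 185200 CPM. Of 8 slow-twitch fiber markers, 7 had log2 fold changes below 0 in both comparisons made here, by the labels and without the library labelled Ctrl replicate 4 (medians -1.27 and -1.30). Of these 8, 6 were lower at an unadjusted p of 0.05 in each comparison, beside 3.88% and 7.72% of all genes tested. At the adjusted p 0 and 1 passed (edgeR), beside 0% and 1.02% of all genes called lower. The summed level of the 8 markers was 2234 to 3465 CPM in the 4 Ctrl libraries and 1833 and 2517 CPM in LSD1skm-/-. These sums include *Myh2*, the myosin of fast type IIA fibers, at 1758, 1202, 1396 and 1538 CPM in Ctrl replicates 1 to 4. In LSD1skm-/- *Myh2* was at 1390 and 1722 CPM, so the sums do not describe slow fiber genes alone. The summed level of 7 fibroblast markers was 446.9 to 489 CPM in Ctrl replicates 1 to 3, 713 CPM in the library labelled Ctrl replicate 4, and 626.4 and 737.5 CPM in the LSD1skm-/- libraries. For 7 endothelial markers the same sums were 176.5 to 199 CPM, 239 CPM, and 156.5 and 156.8 CPM. For 6 Schwann cell markers they were 47.3 to 124 CPM, 166 CPM, and 57.4 and 96.1 CPM, and for 7 adipocyte markers 172 to 351 CPM, 492 CPM, and 166 and 178 CPM. *Fabp4*, a fatty acid carrier that endothelium also expresses, made up 163 of the 166 CPM of the adipocyte sum in LSD1skm-/- replicate 1. All 6 adipocyte markers tested had log2 fold changes below 0, with medians of -4.23 and -3.84 in these comparisons. At an unadjusted p of 0.05, 5 of 6 were lower in each, beside 3.88% and 7.72% of all genes. The adjusted p was passed by 0 of 6 in each (edgeR), beside 0% and 1.02% of all genes called lower. The part of slow fibers, myofiber content and adipocytes in the levels of the 8 genes was not tested. No marker on these lists was at 0 in any library. Fewer cells of a type and less RNA per cell cannot be told apart in these bulk samples.

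Levels of different genes were compared as RPKM, the CPM divided by the kilobases of all annotated exons of a gene. *Sgca*, which encodes α-sarcoglycan, had the highest level, with a mean of 108 RPKM over the 6 libraries and a range from 100.2 to 117.3 RPKM. *Sgcb*, for β-sarcoglycan, followed with a mean of 37.6 RPKM, and *Dag1*, the precursor of both dystroglycans, with 35.5 RPKM. The ranges of *Sgcb*, from 34.7 to 43.7 RPKM, and of *Dag1*, from 32.1 to 37.9 RPKM, overlapped, so these neighbours did not differ beyond their spread. *Sspn*, for sarcospan, had a mean of 19.0 RPKM, *Dtna*, for α-dystrobrevin, 6.75 RPKM and *Dmd* 3.84 RPKM. *Utrn* was low at 1.24 RPKM, and *Sgcd*, for δ-sarcoglycan, was lowest at 0.857 RPKM, with ranges of 0.962 to 1.499 and 0.583 to 1.26 RPKM that overlapped. The order was the same when the longest annotated transcript gave the length, although the mean of *Dtna* then became 18.2 RPKM and that of *Dmd* 6.13 RPKM.

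**Figure D1:**
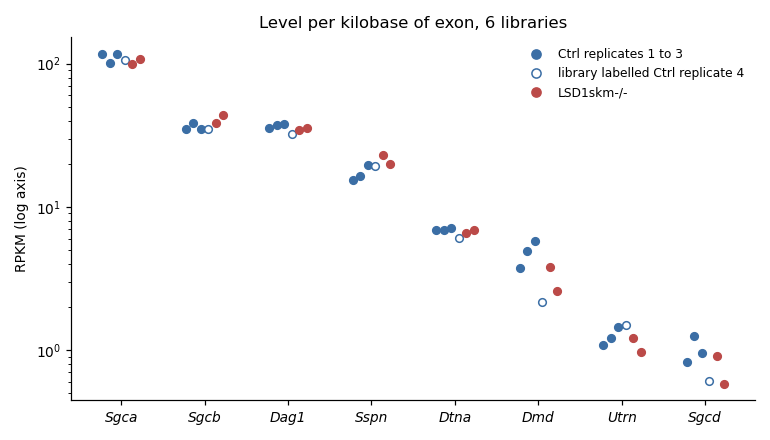
Level of the 8 genes in each of the 6 libraries, in RPKM on a log axis, with filled blue points for Ctrl replicates 1 to 3, an open blue point for the library labelled Ctrl replicate 4 and red points for LSD1skm-/-. Sgca lies between 100.2 and 117.3 RPKM in every library and Sgcd between 0.583 and 1.26 RPKM, and within each gene the colours are close together compared with the distance between most genes.

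Of the 3 sarcoglycans among the 8 genes, δ-sarcoglycan thus had the lowest level per length. ε-Sarcoglycan (*Sgce*), which is not one of the 8, was lower still, with a mean of 0.493 RPKM. These levels depend on the annotated length, and *Sgcd* has a union of exons of 8257 bases against 1735 bases for *Sgca*. With the longest transcripts as the length, *Sgcd* had a mean of 1.59 RPKM, *Sgce* 1.18 RPKM and *Sgca* 109 RPKM.

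None of the 8 genes passed an adjusted p of 0.05 in either comparison (edgeR quasi-likelihood test, Benjamini-Hochberg adjustment over 11364 rows). By the labels 0 of 8 passed, beside 0.0% of all genes tested. At an unadjusted p of 0.05, 0 of 8 passed, beside 8.9% of all genes (5.02% higher, 3.88% lower), and DESeq2 called 46 genes at an adjusted p of 0.05 and 0 of the 8. Without the library labelled Ctrl replicate 4, 0 of 8 passed the adjusted p, beside 5.39% of all genes (612 genes), and 2 of 8 passed the unadjusted p, beside 20.2%. Those 2 were *Dmd*, lower in LSD1skm-/- (7.72% of all genes), and *Sspn*, higher (12.5%). DESeq2 called 1056 genes in that comparison and again 0 of the 8. By the labels 3 of 8 log2 fold changes were above 0 (48.6% of all genes) and the median was -0.063, against -0.0077 over all genes tested. Without that library the count was 2 of 8 (49.0%) and the median -0.095, against -0.0058.

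**Figure D2:**
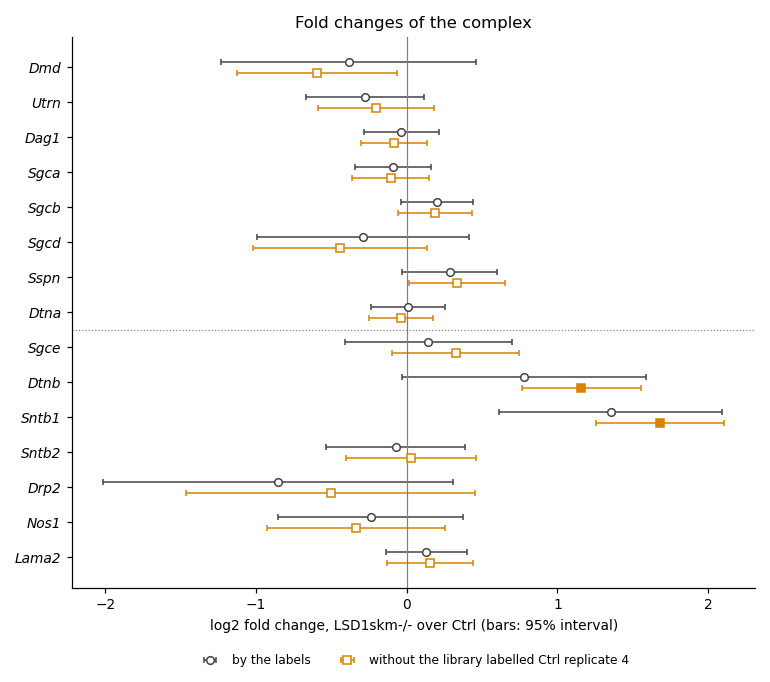
Log2 fold change of the 8 genes (above the dotted line) and of the other measured subunits and partners (below it), LSD1skm-/- over Ctrl, with 95% intervals. Grey circles are the comparison by the labels, orange squares that with Ctrl replicate 4 left out, and filled symbols passed an adjusted p of 0.05 in edgeR. All 8 genes above the line have open symbols, and Dtnb and Sntb1 are the filled ones below it.

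*Dmd* encodes dystrophin and spans 2257272 bases of the plus strand, chrX:82948870-85206141 (GRCm38). Its level was 89.4, 118 and 137 CPM in Ctrl replicates 1, 2 and 3, 51.5 CPM in the library labelled Ctrl replicate 4, and 90.9 and 61.0 CPM in LSD1skm-/- replicates 1 and 2. The lowest value of all was in the library labelled Ctrl replicate 4, and LSD1skm-/- replicate 1 lay above Ctrl replicate 1, so the groups overlapped with and without that library. Over the 4 Ctrl libraries *Dmd* varied most of the 8 genes, with a coefficient of variation of 37.7%. Its highest value was 2.67 times the lowest over all 6. Over Ctrl replicates 1 to 3 alone, the SD of log2 CPM was 0.314 for *Dmd* and 0.305 for *Sgcd*. The LSD1skm-/- libraries differed by 0.574 in log2 CPM for *Dmd* and by 0.634 for *Sgcd*. *Dmd* had a log2 fold change of -0.38 by the labels (95% interval -1.23 to 0.46, adjusted p = 0.737, edgeR) and -0.60 without the library labelled Ctrl replicate 4 (95% interval -1.13 to -0.066, adjusted p = 0.199, edgeR). With no limit on low counts the latter adjusted p became 0.000253 at the same fold change of -0.60. Without LSD1skm-/- replicate 2 the fold change in that comparison was -0.34, and without LSD1skm-/- replicate 1 it was -0.92. Counts were 2253 to 4740 reads per library, so the spread was far above counting error. *Dmd* has a longest transcript of 14910 bases. Of the 296 tested genes with an annotated transcript above 10000 bases, 213 had a log2 fold change below 0 by the labels (median -0.11). Without the library labelled Ctrl replicate 4 the count was 219 (median -0.14). Among all 11364 genes tested, 5846 and 5795 were below 0 in these comparisons (medians -0.0077 and -0.0058). The part of transcript length in the values of *Dmd* was not tested.

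*Utrn* encodes utrophin, which takes the place of dystrophin at the neuromuscular junction and in many cells other than myofibers, endothelium among them. It lies on the minus strand at chr10:12382188-12869365. Its level was 18.6, 20.9 and 24.8 CPM in Ctrl replicates 1 to 3, 25.7 CPM in the library labelled Ctrl replicate 4, and 20.7 and 16.5 CPM in LSD1skm-/- replicates 1 and 2. The library labelled Ctrl replicate 4 was highest and LSD1skm-/- replicate 2 lowest, and the groups overlapped. By the labels its log2 fold change was -0.28 (95% interval -0.67 to 0.11, adjusted p = 0.621, edgeR) and -0.20 without the library labelled Ctrl replicate 4 (adjusted p = 0.54, edgeR). All 7 endothelial markers had log2 fold changes below 0 in both comparisons, 0 of 7 passed the adjusted p, and their medians were -0.34 and -0.21. Their part in the level of *Utrn* was not tested. On the linear scale the interval by the labels runs from 0.630 to 1.08 times the Ctrl level.

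Per length, *Dmd* exceeded *Utrn* in all 6 libraries. The ratio of their RPKM was 3.46, 4.07 and 3.98 in Ctrl replicates 1 to 3, 1.44 in the library labelled Ctrl replicate 4, and 3.16 and 2.67 in the LSD1skm-/- libraries. The mean log2 ratio of LSD1skm-/- minus that of Ctrl was -0.047 by the labels (exact two-sided permutation p = 1) and -0.40 without that library (exact permutation p = 0.1). The smallest p such a test can give is 0.067 with 4 against 2 libraries and 0.1 with 3 against 2.

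Counts per gene join all transcripts of a gene, although *Dmd* has several starts that give proteins of different length. The windows below hold the 250 bases before 2 *Dmd* starts and before a *Utrn* start, taken from RefSeq on GRCm38.p6. They are shown because a gene-level count cannot say which start was used, and because the 2 genes are alternatives for the same place in the complex. Dmd start 1 is chrX:82948620-82948869 on the plus strand, before the most upstream annotated *Dmd* transcript. Dmd start 2 is chrX:85048045-85048294 on the plus strand, far downstream within the gene, where the annotated transcripts that start close by are retained introns. The Utrn window is chr10:12861736-12861985 on the minus strand, close to the annotated start of the protein-coding transcript Utrn-201. It lies inside the gene, whose most upstream annotated base is 12869365, so it is not before the most upstream *Utrn* start. Capitals mark E-boxes (CANNTG, the letters bound by myogenic factors such as MyoD) and the glucocorticoid element hexamer AGAACA, read on both strands, so that it appears as TGTTCT on the other strand.
Dmd start 1: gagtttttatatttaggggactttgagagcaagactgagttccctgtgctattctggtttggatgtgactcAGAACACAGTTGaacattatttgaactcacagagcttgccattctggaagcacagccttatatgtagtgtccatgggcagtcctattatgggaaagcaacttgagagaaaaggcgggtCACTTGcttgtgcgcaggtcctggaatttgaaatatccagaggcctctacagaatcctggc
Dmd start 2: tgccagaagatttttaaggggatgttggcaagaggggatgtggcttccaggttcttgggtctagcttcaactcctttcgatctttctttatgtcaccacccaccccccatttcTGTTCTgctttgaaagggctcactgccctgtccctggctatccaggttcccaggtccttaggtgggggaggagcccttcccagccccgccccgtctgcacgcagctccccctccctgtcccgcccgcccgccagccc
Utrn start: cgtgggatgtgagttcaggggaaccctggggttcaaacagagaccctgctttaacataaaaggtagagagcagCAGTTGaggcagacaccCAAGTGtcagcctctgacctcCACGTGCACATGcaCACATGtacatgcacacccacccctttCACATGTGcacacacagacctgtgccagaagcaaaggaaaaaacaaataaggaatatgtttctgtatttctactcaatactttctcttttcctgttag
The window of Dmd start 1 holds 2 E-boxes and 1 hexamer, which directly precedes the more upstream E-box so that both form 1 run of capitals. Dmd start 2 holds 1 hexamer and 0 E-boxes, and the Utrn window holds 7 E-boxes, of which 2 overlap each other in the run CACATGTG, and 0 hexamers. Of 32851 RefSeq windows of the same length, 66.2% hold an E-box and 16.1% the hexamer.  The matches describe letters only.

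*Dag1* lies at chr9:108204634-108263958 on the minus strand. Its level was 227, 238 and 241 CPM in Ctrl replicates 1 to 3, 204 CPM in the library labelled Ctrl replicate 4, and 218 and 226 CPM in LSD1skm-/-. Both LSD1skm-/- libraries lay above that library and below the other Ctrl libraries, and the groups separated only without that library. *Dag1* had a log2 fold change of -0.036 by the labels (95% interval -0.29 to 0.21, adjusted p = 0.927, edgeR) and -0.083 without it (adjusted p = 0.675, edgeR). *Dtna*, which anchors syntrophins to dystrophin, was at 117, 117 and 120 CPM in Ctrl replicates 1 to 3, 102 CPM in the library labelled Ctrl replicate 4, and 112 and 118 CPM in LSD1skm-/-. The groups overlapped, with a log2 fold change of 0.0077 by the labels (95% interval -0.24 to 0.25, adjusted p = 0.984, edgeR) and -0.039 without that library (adjusted p = 0.851, edgeR). *Dtna* and *Dag1* had the narrowest spread of the 8 along with *Sgca*, with highest over lowest values of 1.17 and 1.18 over the 6 libraries.

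Among the sarcoglycans, *Sgcb* was higher in both LSD1skm-/- libraries than in every Ctrl library, a difference that did not pass the test. *Sgcb*, at chr5:73632749-73647790 on the minus strand, was at 142, 156 and 141 CPM in Ctrl replicates 1 to 3, 142 CPM in the library labelled Ctrl replicate 4, and 156 and 177 CPM in LSD1skm-/-. Ctrl replicate 2, at 155.8 CPM, almost met LSD1skm-/- replicate 1, at 156.4 CPM. This gave a log2 fold change of 0.20 by the labels (95% interval -0.040 to 0.44, adjusted p = 0.571, edgeR) and 0.19 without the library labelled Ctrl replicate 4 (adjusted p = 0.368, edgeR).

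*Sgca*, at chr11:94962791-94976327 on the minus strand, was at 203, 177 and 204 CPM in Ctrl replicates 1 to 3, 185 CPM in the library labelled Ctrl replicate 4, and 174 and 187 CPM in LSD1skm-/-, and the groups overlapped. *Sgca* had a log2 fold change of -0.090 by the labels (95% interval -0.34 to 0.16, adjusted p = 0.794, edgeR) and -0.11 without that library (adjusted p = 0.639, edgeR). *Sgcd*, spread over 1092717 bases of the minus strand at chr11:46896253-47988969, was at 6.83, 10.4 and 7.88 CPM in Ctrl replicates 1 to 3, 5.05 CPM in the library labelled Ctrl replicate 4, and 7.50 and 4.81 CPM in LSD1skm-/-. The groups overlapped, and the coefficient of variation over the 4 Ctrl libraries, 29.6%, was second to that of *Dmd*. Its log2 fold change was -0.29 by the labels (95% interval -0.99 to 0.41, adjusted p = 0.763, edgeR) and -0.44 without that library (adjusted p = 0.376, edgeR). It rested on 181 to 337 reads per library.

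*Sspn* encodes sarcospan, a small membrane protein bound to the sarcoglycans, and lies at chr6:145931641-145965223 on the plus strand. Its level was 76.5, 82.2 and 98.0 CPM in Ctrl replicates 1 to 3, 97.0 CPM in the library labelled Ctrl replicate 4, and 116 and 99.8 CPM in LSD1skm-/-. Both LSD1skm-/- libraries lay above every Ctrl library, with Ctrl replicate 3 close below LSD1skm-/- replicate 2. This gave a log2 fold change of 0.28 by the labels (95% interval -0.033 to 0.60, adjusted p = 0.56, edgeR) and 0.33 without the library labelled Ctrl replicate 4 (95% interval 0.015 to 0.65, adjusted p = 0.229, edgeR). The antisense gene *Sspnos* overlaps *Sspn*. The library kit keeps the strand, but the strand setting of the counting is not given in the sources used here, so reads of the pair may not be told apart. The same holds for *Dtna* and *Gm47898*, which also overlap on opposite strands.

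Groups without overlap were thus seen for 2 of 8 genes by the labels, *Sgcb* and *Sspn*, both higher, beside 17.8% of all genes tested (9.8% higher, 8.02% lower). Without the library labelled Ctrl replicate 4 there were 3 of 8, *Dag1* lower as well, beside 37.7% of all genes (20.3% higher, 17.3% lower).

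**Figure D3:**
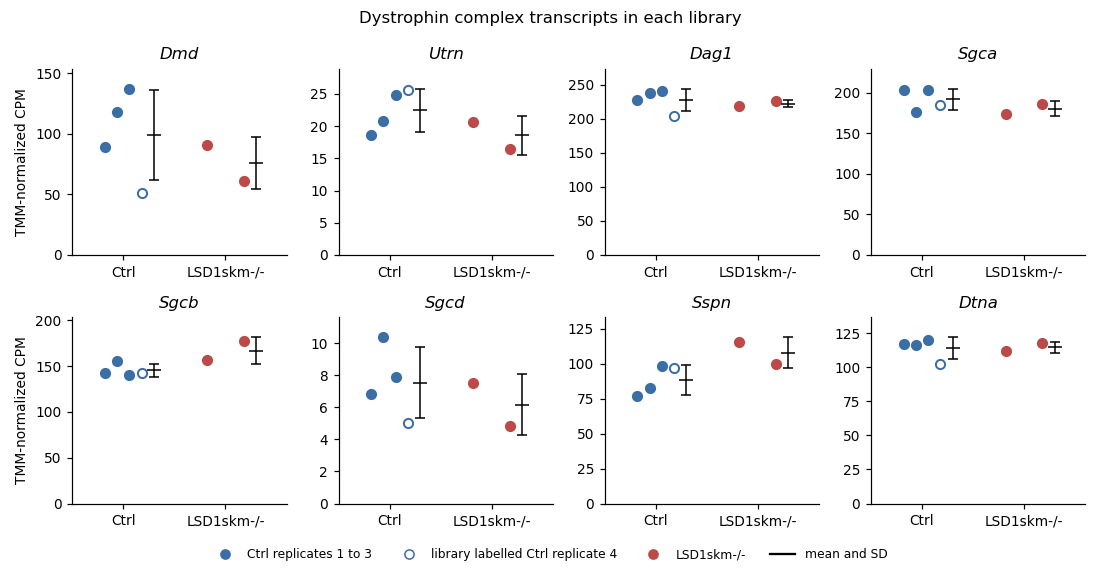
TMM-normalized CPM of the 8 genes in each library, on axes that start at 0, with the mean and SD of each labelled group (n = 4 Ctrl, n = 2 LSD1skm-/-) as a bar beside the points; the open point is the library labelled Ctrl replicate 4. Dmd and Sgcd scatter most within Ctrl, Sgcb and Sspn are the genes whose red points all lie above the blue ones, and Dag1, Sgca and Dtna stay within narrow ranges.

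The members followed each other only in part across the 6 libraries. *Dag1* and *Dtna* had a Pearson r of 0.924 in log2 CPM, *Dmd* and *Sgcd* 0.883, *Dmd* and *Dag1* 0.853, and *Utrn* and *Sgcb* -0.749, while *Dmd* and *Utrn* had 0.164. The library labelled Ctrl replicate 4 and the shared scaling enter each of these values, which describe 6 libraries and were not tested. Of all genes tested, those most like *Dmd* over the 6 libraries were *Wapl*, a cohesin release factor (r = 0.999), *Plec*, the cytolinker plectin (r = 0.995), and *Icmt*, a methyltransferase of prenylated proteins (r = 0.993). Those most like *Utrn* were *Ubb*, a ubiquitin gene (r = 0.995), *2610035D17Rik* (r = 0.99) and *B3gnt3* (r = 0.987). All of these were picked as the highest r among all genes tested over only 6 libraries. Such high values follow in part from that choice, and none was tested. *Plec* was at 522 to 616 CPM in Ctrl replicates 1 to 3, 437 CPM in the library labelled Ctrl replicate 4, and 530.5 and 452.7 CPM in LSD1skm-/-, the order *Dmd* had.

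Around these 8 genes, the partners *Dtnb* and *Sntb1* passed edgeR's adjusted p, both higher in LSD1skm-/-, without the library labelled Ctrl replicate 4. Of 8 other subunits and partners with a row, 7 were tested, with 4 log2 fold changes above 0 and 3 below by the labels. edgeR called 0 of them there (1 at an unadjusted p of 0.05) and DESeq2 called *Sntb1*. Without that library the counts were 5 and 2, with 2 calls, both higher, beside 4.36% of all genes called higher. *Dtnb*, for β-dystrobrevin, was at 4.43, 4.22 and 3.30 CPM in Ctrl replicates 1 to 3, 8.69 CPM in the library labelled Ctrl replicate 4, and 9.23 and 8.56 CPM in LSD1skm-/-. The library labelled Ctrl replicate 4 lay among the LSD1skm-/- libraries, and the other Ctrl libraries well below them. Its log2 fold change was 0.78 by the labels (SE 0.35, adjusted p = 0.557, edgeR) and 1.16 without that library (SE 0.17, adjusted p = 0.0103, edgeR). That call was lost when LSD1skm-/- replicate 1 or 2 was also left out (adjusted p = 0.0736 and 0.0718, edgeR).

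*Sntb1*, for β1-syntrophin, an adaptor for signaling proteins, was at 9.61, 9.39 and 14.1 CPM in Ctrl replicates 1 to 3, 22.0 CPM in the library labelled Ctrl replicate 4, and 35.4 and 35.3 CPM in LSD1skm-/-. Both LSD1skm-/- libraries lay above every Ctrl library, the library labelled Ctrl replicate 4 included, which was in between. *Sntb1* had a log2 fold change of 1.35 by the labels (95% interval 0.61 to 2.10, adjusted p = 0.557, edgeR), where DESeq2 gave an adjusted p of 0.0165, and 1.68 without that library (95% interval 1.26 to 2.11, adjusted p = 0.00389, edgeR).

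The paralog of *Dtnb* among the members, *Dtna*, did not pass, as given above. Per length, *Dtnb* was 0.0485 to 0.0666 of *Dtna* in Ctrl replicates 1 to 3, 0.1495 in the library labelled Ctrl replicate 4, and 0.145 and 0.128 in LSD1skm-/-. The log2 difference was 0.88 by the labels (exact permutation p = 0.333) and 1.21 without that library (exact permutation p = 0.1, the smallest possible). *Dtna* was thus the more abundant of the pair per length in each library.

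**Figure D4:**
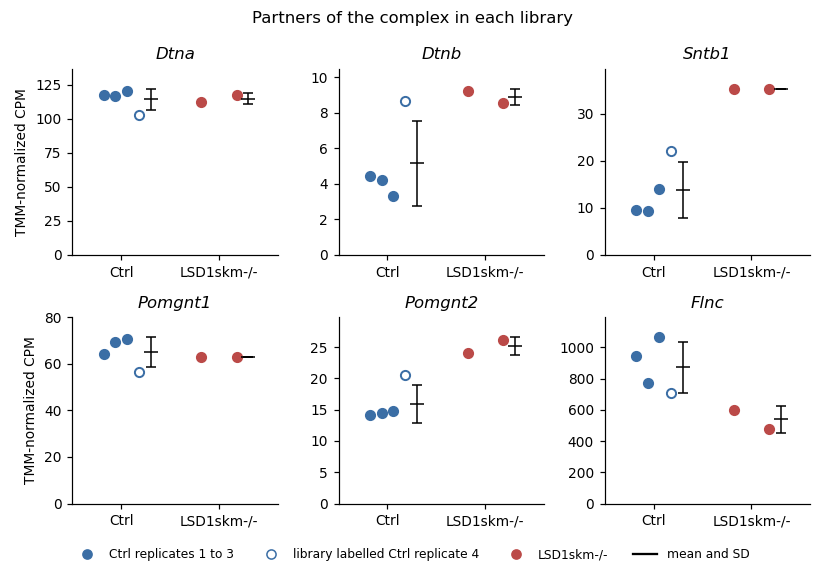
TMM-normalized CPM of Dtna, Dtnb and Sntb1 (above) and Pomgnt1, Pomgnt2 and Flnc (below) in each library, on axes that start at 0; bars are the mean and SD of the labelled groups (n = 4 and n = 2) and the open point is the library labelled Ctrl replicate 4. For Dtnb, Sntb1 and Pomgnt2 both LSD1skm-/- libraries lie above Ctrl replicates 1 to 3, with the open point at their level for Dtnb and between the groups for Sntb1 and Pomgnt2, and for Flnc both lie below every Ctrl library.

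All 7 fibroblast markers had log2 fold changes above 0 in both comparisons (medians 0.37 and 0.47). Without the library labelled Ctrl replicate 4, 2 of 7 passed the adjusted p (edgeR), both higher, beside 4.36% of all genes called higher. In that library the summed fibroblast level, 713 CPM, and *Dtnb*, at 8.69 CPM, were within the range of LSD1skm-/-. *Sntb1*, at 22.0 CPM, lay between the groups there. The part of fibroblasts in the levels of *Dtnb* and *Sntb1* was not tested.

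α-Dystroglycan binds laminin only once its sugar chain has been built by a chain of enzymes. Of 18 genes of this glycosylation pathway with a row, 16 were tested, 8 above 0 and 8 below in both comparisons, with medians of 0.0091 and 0.020. By the labels 0 passed in edgeR or DESeq2 (2 at an unadjusted p of 0.05 in edgeR), and without the library labelled Ctrl replicate 4 only *Pomgnt2* did in edgeR and in DESeq2, 1 of 16 beside 4.36% of all genes called higher and 5.39% called in all by edgeR. *Pomgnt2* encodes the enzyme that adds N-acetylglucosamine to the O-mannose at an early step. It was at 14.1, 14.5 and 14.8 CPM in Ctrl replicates 1 to 3, 20.5 CPM in the library labelled Ctrl replicate 4, and 24.1 and 26.2 CPM in LSD1skm-/-, without overlap. Its log2 fold change was 0.65 by the labels (adjusted p = 0.557, edgeR) and 0.80 without that library (SE 0.10, adjusted p = 0.0065, edgeR), and without LSD1skm-/- replicate 2 as well the adjusted p was 0.0573. *Pomgnt1*, shown as its counterpart after its values were seen, was at 56.4 to 70.5 CPM in Ctrl and 63.1 CPM in both LSD1skm-/- libraries (log2 fold change -0.044 by the labels, adjusted p = 0.913, edgeR). Without the library labelled Ctrl replicate 4 its log2 fold change was -0.11 (adjusted p = 0.597, edgeR).

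Of 14 linker and membrane repair genes, all tested, 4 were above 0 and 10 below by the labels, with 0 calls in edgeR or DESeq2 (1 at an unadjusted p of 0.05 in edgeR). Without the library labelled Ctrl replicate 4 the counts were 5 and 9, with 1 call, beside 1.02% of all genes called lower. That gene was *Flnc*, for filamin C, an actin crosslinker that binds sarcoglycans. It was at 945, 772 and 1065 CPM in Ctrl replicates 1 to 3, 705 CPM in the library labelled Ctrl replicate 4, and 600.4 and 479.5 CPM in LSD1skm-/-, both below every Ctrl library. The log2 fold change was -0.69 by the labels (adjusted p = 0.557, edgeR) and -0.78 without that library (SE 0.17, adjusted p = 0.0462, edgeR). The call did not hold when Ctrl replicate 1 or 3 or either LSD1skm-/- library was also left out, with adjusted p from 0.0773 to 0.265 (edgeR).

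At the neuromuscular junction, where utrophin, α-dystrobrevin and syntrophins gather beneath the acetylcholine receptors, all 11 listed genes were tested. By the labels 7 were above 0 and 4 below, with 0 calls in edgeR or DESeq2 (2 at an unadjusted p of 0.05 in edgeR), and without the library labelled Ctrl replicate 4 the directions were again 7 and 4. There edgeR called 2, both higher, beside 4.36% of all genes called higher. DESeq2 called 4, beside 1056 of all 11364 genes called in either direction. Its additional calls, both higher, were *Ache*, for acetylcholinesterase (adjusted p = 0.0226, DESeq2), and *Chrnd*, for the δ subunit of the receptor (adjusted p = 0.0492, DESeq2). *Ache* was at 28.2, 35.5 and 26.35 CPM in Ctrl replicates 1 to 3, 40.4 CPM in the library labelled Ctrl replicate 4, and 39.6 and 51.7 CPM in LSD1skm-/-. *Chrnd* was at 2.23, 1.85 and 2.17 CPM, 2.24 CPM, and 3.72 and 3.40 CPM in the same order. By the labels their log2 fold changes were 0.48 and 0.74 (adjusted p = 0.557 for each, edgeR). *Chrnb1*, for the β subunit of the receptor, was at 33.1, 29.5 and 28.3 CPM in Ctrl replicates 1 to 3, 68.9 CPM in the library labelled Ctrl replicate 4, and 51.6 and 58.0 CPM in LSD1skm-/-. *Chrna1*, for the α subunit, was at 15.9, 16.1 and 12.3 CPM, 26.2 CPM, and 23.1 and 24.3 CPM in the same order. For both, the library labelled Ctrl replicate 4 was highest of all. The log2 fold change of *Chrnb1* was 0.45 by the labels (adjusted p = 0.683, edgeR) and 0.86 without that library (SE 0.11, adjusted p = 0.00694, edgeR). For *Chrna1* it was 0.42 (adjusted p = 0.63, edgeR) and 0.69 (SE 0.14, adjusted p = 0.0367, edgeR). Leaving out LSD1skm-/- replicate 2 as well gave adjusted p of 0.0646 for *Chrnb1* and 0.201 for *Chrna1* (edgeR), and *Chrna1* also lost its call without Ctrl replicate 1 (0.0847), Ctrl replicate 3 (0.0593) or LSD1skm-/- replicate 1 (0.113).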

How the data were processed

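RNA-seq counts of mouse muscle were analysed in R 4.3.3 and Python 3.11.15. Per the labels and the study's methods, the authors demultiplexed reads with bcl2fastq (2.20.0.422 in the labels, another version in the methods), removed adapter dimers, mapped to mm10, retained reads with a unique alignment and quantified each gene. The methods name htseq-count for mapping and HOMER for quantification, and the strand setting is not given in the sources used here. The deposited values are raw counts of reads per gene, not normalized. Groups came from the labels. The labels do not say that the replicates of a group are separate mice, so p-values measure the spread between these samples, which may be technical. Chi-square per degree of freedom was 33.2 to 95.4 over pairs of libraries within a group, above sampling noise, so none was counted as a duplicate.

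The 11364 rows whose counts averaged over 50 per library entered edgeR's quasi-likelihood test (version 4.0.16) with TMM scaling, condition as covariate and Benjamini-Hochberg adjustment, with 0.05 as the threshold. The standard error is the fold change divided by the root of F. DESeq2 1.42.0, other scalings, other limits on low counts, a replicate block and each library left out were the alternatives. RPKM used exons of GENCODE vM21 on GRCm38. No 50-base stretch of the 8 genes is shared with another gene, except 0.0525% for *Dtna*. Library totals of 30654828 to 41278769 counts make counting error small beside the spread between libraries for most members. The genes, lists and the choice to drop Ctrl replicate 4 from the second comparison were made with earlier results of these data known. Of the 4 lists of genes around the complex, those with an edgeR adjusted p under 0.05 in either comparison are named, with exceptions stated where they occur. Cell type markers are given as lists. Some genes around the complex are not reported here and were left out of its lists, not for their values.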

Additional observations from a re-analysis of the deposited data

Results flagged for a closer look

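A library that stands far from the rest of its group was sought among the 4 Ctrl libraries for 15 genes, as the gap to the nearest library divided by the group's range in log2 CPM, against Dixon's 95% critical value for 4 samples. Chance alone passes about 1 in 20 such groups when the genes are chosen without regard to the libraries, and 3 of 15 passed here. *Kdm1a* had singled out the library labelled Ctrl replicate 4. The partners among the 15 were named because they passed the adjusted p in edgeR once that library was dropped. The share that passed can therefore not be set against the chance rate. For *Kdm1a* the gap was 0.879, with the library labelled Ctrl replicate 4 at 3.66 CPM against 22.0 to 28.1 CPM in the others. For *Pomgnt2* it was 0.883, with the same library at 20.5 CPM against 14.1 to 14.8 CPM. For *Sgcb* it was 0.884, with Ctrl replicate 2 at 155.8 CPM against 140.7 to 142.4 CPM, the library that came closest to LSD1skm-/- replicate 1.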

How the results depend on the processing

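The number of LSD1skm-/- libraries limits each value, and leaving out either leaves a lone library that is assumed to vary like the others. Of 375 values of single genes over the alternatives, 339 kept their direction and their side of the threshold, 16 passed it only in the alternative, 13 no longer passed and 7 changed sign. By the labels, the 0 genes with an adjusted p under 0.05 became 149 with no limit on low counts, 46 with DESeq2 and 632 with the replicate number as a block, and 0 to 612 with a library left out. The 1011 with an unadjusted p under 0.05 became 2189 with no limit, 1677 with the block and 391 to 2292 with a library left out. The members among them, 0 before, became 2 with the block and 0 to 2 with a library left out. Deviations from the group mean had correlations of -0.233 and -0.0334 between same-numbered libraries. With 2 LSD1skm-/- libraries these deviations are equal and opposite, so Ctrl replicate 1 had 0.233 with LSD1skm-/- replicate 2. Whether replicate numbers pair the libraries can therefore not be told from these values. Ctrl replicates 3 and 4 have no LSD1skm-/- library of the same number here, so the block takes up their values. Fold changes with the block thus rest on replicates 1 and 2 of each group and leave the library labelled Ctrl replicate 4 without weight. Without the library labelled Ctrl replicate 4, the 612 genes became 1914 with no limit on low counts, 1056 with DESeq2 and 143 to 504 with a further library left out, and the 2292 became 3843 with no limit. There 1 member, *Dmd*, then passed the adjusted p, and the 2 members with an unadjusted p under 0.05 became 1 with library size scaling and 0 to 2 with a further library left out. The members' median log2 fold change stayed below 0 in all alternatives run. *Dag1* by the labels changed sign with library size scaling (0.0040). *Dtna* by the labels changed sign with DESeq2 size factors (-2.7e-05), no limit on low counts (-0.0058), the block (-0.028), and without the library labelled Ctrl replicate 4 (-0.039) or LSD1skm-/- replicate 2 (-0.028; range with a library left out -0.039 to 0.038), and in the other comparison with library size scaling (0.031). *Sntb1* kept its call in each alternative run of that comparison. The cause of these shifts was not tested.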
